A study of Mus musculus with 6 samples.

Results

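The Hox genes of the 4 mammalian clusters were followed in LSC GFP+ and LSC GFP-, the populations sorted from the basal cell fraction of the neonatal mouse prostate. The members are all array probes whose gene name in the array design is Hoxa, Hoxb, Hoxc or Hoxd followed by a number. This rule, which uses no measured value, took 39 genes, measured by 43 of the 55681 probes, out of 36163 gene names. The array thus carried the full set of 11 Hoxa, 10 Hoxb, 9 Hoxc and 9 Hoxd genes.

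The study asked how the stem cell fraction of the neonatal prostate differs from other basal cells. Both populations were sorted from prostates of untreated, 6 day-old male FVB/N Tg 11.5kb-GFP mice, in which GFP is driven by an 11.5 kb fragment of the s-SHIP promoter, an internal promoter of the SHIP1 phosphatase gene. LSC cells lack the lineage markers Ter119, CD31 and CD45 and carry Sca-1 and CD49f, a fraction that holds the basal cells. Both populations came from mice with the same transgene, and GFP only reports where that promoter fragment is active. RNA of 3 independent samples per population was amplified and hybridised as Cy3-labelled cDNA to 6 single-colour arrays of 1 slide. The labels do not say whether a sample is 1 animal or a pool, so the p values measure the spread between these samples.

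Hox genes encode homeodomain transcription factors that give cells their position along the body axis. Within a cluster the genes lie in the order of their paralogue numbers, and genes with high numbers are generally expressed later and further toward the tail. Genes with the same number in different clusters descend from 1 ancestral gene and are called paralogues. The urogenital sinus, from which the prostate buds, lies in the domain of the posterior Hox genes, and loss of Hoxa13 or Hoxd13 reduces the growth and branching of the male accessory glands. Hoxb13 is best known for its part in the differentiation of the ventral prostate lobe. Hox proteins bind DNA together with TALE homeodomain proteins of the Pbx, Meis and Pknox families, and the clusters are classical targets of Polycomb repression and Trithorax activation.

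Signals are given as log2 values after subtraction of the 75th percentile of each array, so that 0 is that percentile. A gene with several probes is read at the probe with the highest mean signal. Levels of different probes cannot be set against each other on an array, so only differences between the populations are compared among genes. Between 30 and 34 of the 39 Hox genes were well above background per array, and the 30 that were above it on all 6 arrays could be tested. The genes with no signal above background on any array were Hoxb1, Hoxc6, Hoxc11 and Hoxc13. Hoxa2, Hoxc9, Hoxc12 and Hoxd1 were above background on some arrays and were not tested either. The untested genes thus include 5 of 9 in the Hoxc cluster.

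The sequences shown here are the promoters of Hoxd9, Hoxd10 and Hoxd13, which flank or end the stretch of the Hoxd cluster in which the direction of the difference turned. Each run covers 250 bases before to 50 after the gene's start in RefSeq (GRCm38.p6), at chr2:74697513-74697812, chr2:74691641-74691940 and chr2:74667975-74668274, all on the plus strand. Capitals mark matches on either strand to TATAAA, the TATA box, to CCAAT, the CCAAT box, to TTTATG, a Cdx-type word, or to TGATNNAT, a Pbx-Hox-type word.
Hoxd9 promoter: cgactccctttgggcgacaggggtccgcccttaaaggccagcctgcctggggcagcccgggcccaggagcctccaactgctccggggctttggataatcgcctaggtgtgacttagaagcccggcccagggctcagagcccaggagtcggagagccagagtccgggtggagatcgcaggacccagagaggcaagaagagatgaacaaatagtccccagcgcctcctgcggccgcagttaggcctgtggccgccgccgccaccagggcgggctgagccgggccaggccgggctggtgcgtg
Hoxd10 promoter: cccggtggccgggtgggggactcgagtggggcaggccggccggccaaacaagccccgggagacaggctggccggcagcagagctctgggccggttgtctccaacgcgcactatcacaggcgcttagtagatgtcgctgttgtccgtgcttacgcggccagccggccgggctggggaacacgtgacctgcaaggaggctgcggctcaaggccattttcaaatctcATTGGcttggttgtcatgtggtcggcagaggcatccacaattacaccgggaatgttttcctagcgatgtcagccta
Hoxd13 promoter: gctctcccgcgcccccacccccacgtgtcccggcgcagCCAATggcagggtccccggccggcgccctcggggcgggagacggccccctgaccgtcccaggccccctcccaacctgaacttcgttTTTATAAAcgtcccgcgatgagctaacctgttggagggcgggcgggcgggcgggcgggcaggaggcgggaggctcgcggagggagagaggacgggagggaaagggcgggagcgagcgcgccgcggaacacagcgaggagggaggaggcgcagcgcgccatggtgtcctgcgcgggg
Hoxd13 has a CCAAT box and overlapping TATAAA matches on both strands, Hoxd10 a CCAAT box, and Hoxd9 none of the 4 words, which says only that these letters are not in this window. The words are frequent: over all 32851 RefSeq mouse promoters of the same length, CCAAT was found in 37.4%, TATAAA in 13.6%, TTTATG in 11.9% and TGATNNAT in 8.85%. The table held 24 promoters for 22 of the 39 Hox genes. Among these 24, CCAAT was found in 15, TTTATG in 5, and TATAAA and TGATNNAT in 4 each. CpG dinucleotides numbered 20 in the Hoxd9 window, 22 in that of Hoxd10 and 37 in that of Hoxd13, with a median of 14.5 over the Hox promoters and 7 over all promoters.

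With limma, 22 of the 30 Hox genes tested were past an unadjusted p of 0.05, the threshold of the study. That is 73.3% of the Hox genes, while 7.66% of the 25616 gene symbols tested passed. Rise and fall are used here only for genes past this threshold, in LSC GFP+ relative to LSC GFP- cells. In LSC GFP+ cells 8 Hox genes were higher, a direction in which 3.38% of all symbols passed, and 14 were lower, as were 4.29% of all symbols. The 3 LSC GFP+ values lay entirely above or below the 3 LSC GFP- values for 24 of the 30 genes, compared with 11.9% of all symbols. After Benjamini-Hochberg adjustment over the 37008 probes tested, no Hox probe passed 0.05 in limma, and the lowest adjusted p was 0.0918 for Hoxc4. Only 1 probe of the whole array did so. For a single gene the smallest two-sided p of an exact permutation test with 3 samples per population is 0.1. Of all 43 Hox probes, 33 were tested and 24 passed, 9 higher and 15 lower. Without LSC GFP- replicate 3 the count of genes was 14, with 4 higher and 10 lower, and the calls of Hoxa4, Hoxa5, Hoxa6, Hoxa9, Hoxa10, Hoxa13, Hoxb7, Hoxd8, Hoxd9 and Hoxd12 were each lost without at least 1 of the 6 arrays.

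The direction differed by cluster and, over the genes of all clusters pooled, by paralogue number. The median log2 difference, LSC GFP+ minus LSC GFP-, was 0.47 over the 9 tested Hoxa genes, -1.34 over 9 Hoxb genes, -0.75 over 4 Hoxc genes and -0.14 over 8 Hoxd genes, while it was -0.0043 over all probes tested. By position, the median was -1.42 for the 4 anterior genes of groups 1 to 3, -0.97 for the 14 central genes of groups 4 to 8 and 0.54 for the 12 posterior genes of groups 9 to 13. In the anterior genes 3 were lower and none higher, in the central genes 9 were lower and 2 higher, and in the posterior genes 2 were lower and 6 higher. Cluster and number are mixed here, as most lower anterior and central genes are Hoxb genes. In the Hoxa and Hoxc clusters the tested genes of lowest and highest number had the same sign. The values were 0.36 for Hoxa3 and 0.47 for Hoxa13, and -1.67 for Hoxc4 and -1.96 for Hoxc10. Genes between them did not all share it, with -0.68 for Hoxa4, 0.17 for Hoxc5 and 0.29 for Hoxc8. Hoxa3, Hoxc5, Hoxc8 and Hoxc10 did not pass the test, and Hoxc10 overlapped between the populations (adjusted p = 0.668 in limma). When dim probes were kept, the median was 0.44 for the Hoxd genes, -0.32 for the anterior and 0.28 for the posterior genes. As the RNA is from sorted bulk cells, fewer cells with a transcript and less of it per cell cannot be told apart.

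**Figure D1:**
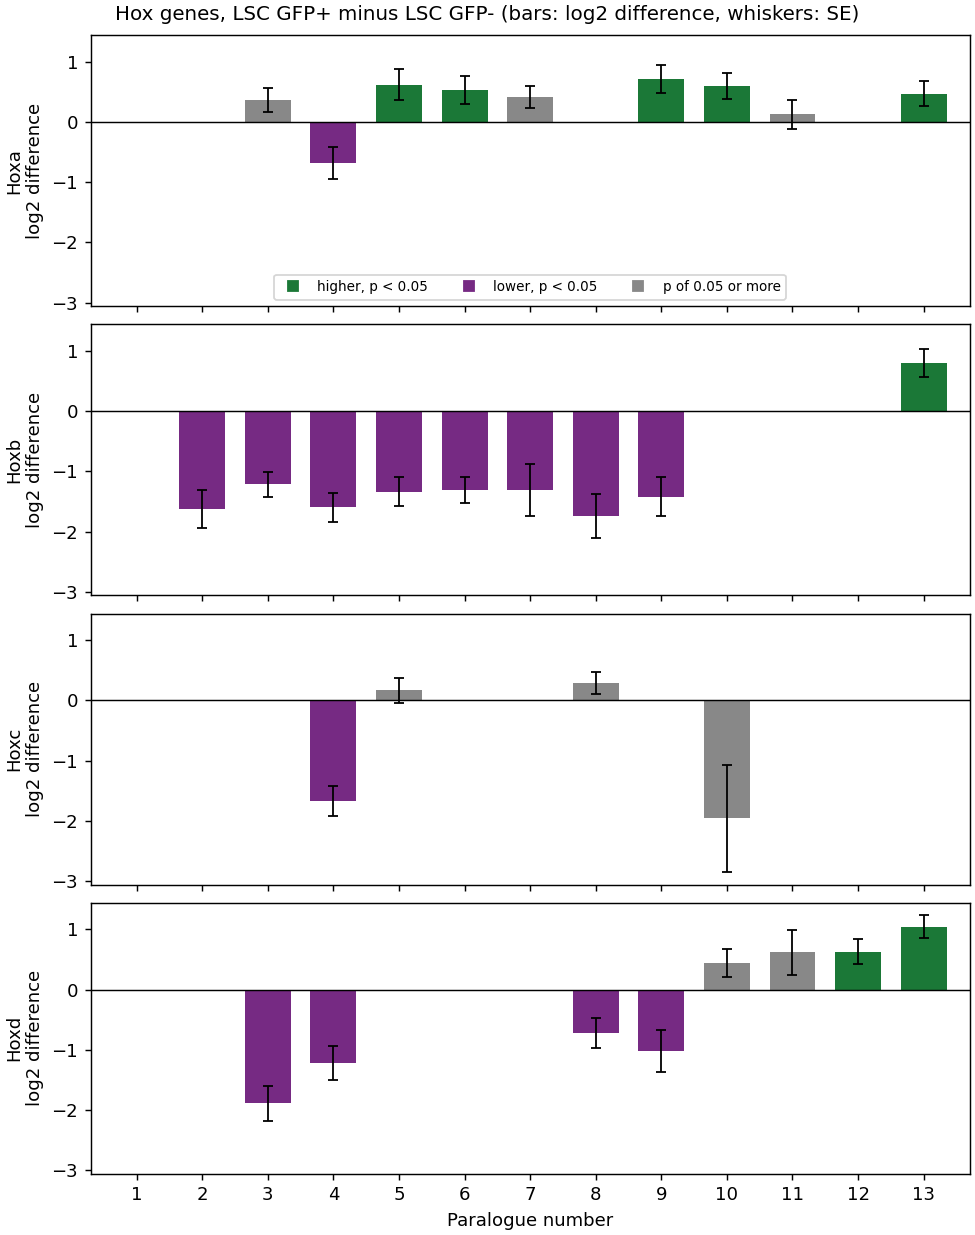
Log2 difference of each tested Hox gene, LSC GFP+ minus LSC GFP- (vertical axis, bars, with the standard error as whiskers), against paralogue number, 1 panel per cluster. Genes too dim to test, and numbers that a cluster lacks, have no bar. Hoxb2 to Hoxb9 lie between -1.74 and -1.22, 8 of 9 Hoxa genes are above 0, and the Hoxd cluster crosses 0 between Hoxd9 and Hoxd10.

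In the Hoxd cluster the 4 genes of lower number (Hoxd3, Hoxd4, Hoxd8 and Hoxd9) were lower in LSC GFP+ cells and the 4 of higher number (Hoxd10 to Hoxd13) had higher means, of which Hoxd12 and Hoxd13 passed the test. Hoxd13, a regulator of accessory gland growth (chr2:74509248-74509307, mm9), had log2 signals of 3.81, 3.93 and 3.66 in LSC GFP+ replicates 1, 2 and 3 and of 2.90, 2.61 and 2.76 in LSC GFP- replicates 1, 2 and 3. The population means were 3.80 ± 0.13 against 2.75 ± 0.14 (SD, n = 3 each). The lowest LSC GFP+ sample stood well above the highest LSC GFP- sample, and the gene rose 2.07-fold (log2 difference 1.05 ± 0.19 (SE), adjusted p = 0.129). Hoxd12, its neighbour (chr2:74515664-74515723), gave -0.58, -0.83 and -0.95 in LSC GFP+ and -1.38, -1.27 and -1.61 in LSC GFP- cells. It rose 1.55-fold, again without overlap (log2 difference 0.63 ± 0.20 (SE), adjusted p = 0.41).

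Next in order are Hoxd11, known for its part in the kidney and vas deferens, and Hoxd10, which patterns lumbar motor neurons. Both overlapped between the populations and did not pass. Hoxd11 gave 1.27, 0.49 and 0.0019 in LSC GFP+ and 0.56, -0.25 and -0.39 in LSC GFP- cells (log2 difference 0.62 ± 0.38 (SE), adjusted p = 0.845). Hoxd10 (chr2:74532280-74532339) gave -0.29, -0.42 and -0.79 and -0.70, -0.93 and -1.19 (log2 difference 0.44 ± 0.23 (SE), adjusted p = 0.756). In both genes the LSC GFP+ sample was the higher one in all 3 pairs of samples with the same replicate number. Once the replicate number was fitted as a block, both were past the unadjusted threshold (adjusted p = 0.169 for Hoxd11 and 0.237 for Hoxd10).

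Hoxd9, a gene of limb patterning (chr2:74537676-74537735), was the first to differ in the opposite direction, at a distance of 5.40 kb between its probe and that of Hoxd10. Its signals were 3.09, 3.75 and 4.18 in LSC GFP+ and 4.13, 4.83 and 5.13 in LSC GFP- cells. It fell 2.03-fold (log2 difference -1.02 ± 0.35 (SE), adjusted p = 0.455), although LSC GFP+ replicate 3 reached just above LSC GFP- replicate 1. Hoxd8 was at -0.14, 0.43 and 0.56 in LSC GFP+ and 0.73, 1.14 and 1.15 in LSC GFP- cells, and fell 1.65-fold (log2 difference -0.72 ± 0.25 (SE), adjusted p = 0.469). Hoxd4, a gene of the hindbrain and neck vertebrae, fell 2.33-fold from -1.66, -1.08 and -1.81 in LSC GFP- to -2.65, -2.43 and -3.13 in LSC GFP+ cells (log2 difference -1.22 ± 0.28 (SE), adjusted p = 0.192). Hoxd8 and Hoxd4 separated the populations without overlap.

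Hoxd3 (chr2:74585787-74585846), which acts in the upper spine, had the lowest difference in the cluster. Its signals were 0.018, 0.66 and 0.34 in LSC GFP+ and 1.94, 2.76 and 1.97 in LSC GFP- cells, with means of 0.34 ± 0.32 against 2.23 ± 0.46 (SD, n = 3 each). All LSC GFP+ samples were thus more than 1 log2 unit below all LSC GFP- samples, and Hoxd3 fell 3.70-fold (log2 difference -1.89 ± 0.29 (SE), adjusted p = 0.0988). Over the genes from Hoxd3 to Hoxd9, all 12 differences between samples of the same number were negative, and over those from Hoxd10 to Hoxd13 all 12 were positive. The stretches were divided where the sign of the mean difference changes, which favours like signs within each. Genes of the same samples are not replicates, so these counts are a description and no test is given.

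**Figure D2:**
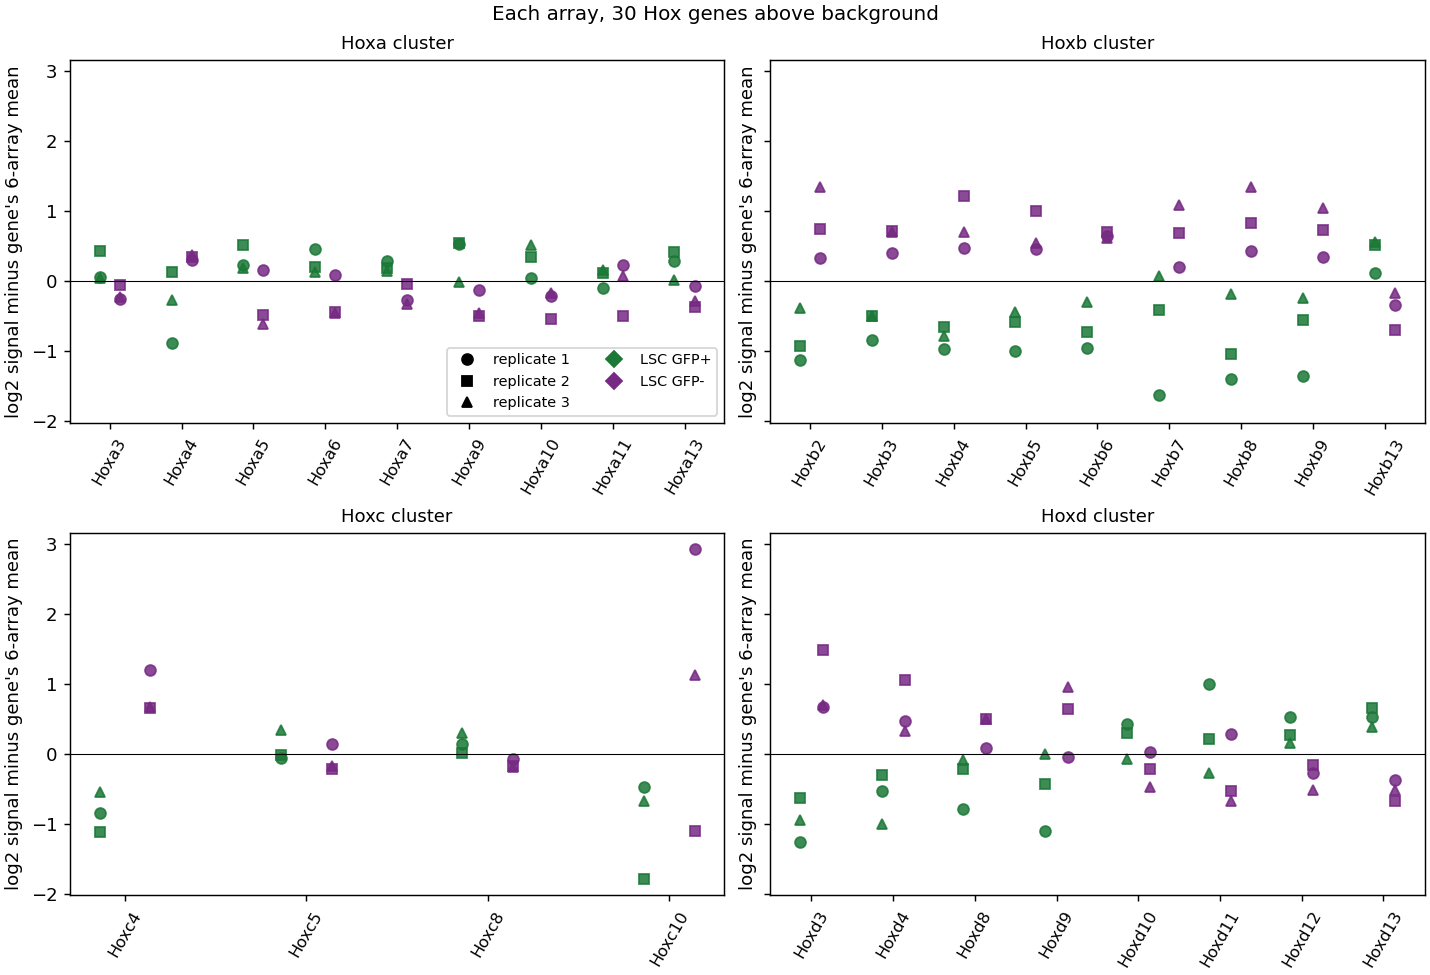
Log2 signal of each of the 30 tested Hox genes on each array, minus the gene's mean over the 6 arrays (vertical axis), by gene and cluster, with LSC GFP+ in green, LSC GFP- in purple and the replicate number as the symbol. In Hoxb2 to Hoxb9 every green point lies below every purple point, and in Hoxb13, Hoxd12 and Hoxd13 every green point lies above them.

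All 9 tested Hoxb genes differed, the 8 from Hoxb2 to Hoxb9 lower and Hoxb13 higher. The contiguous genes fell by similar amounts, between 2.32-fold and 3.34-fold, and none of the 8 overlapped between the populations. Hoxb8 (chr11:96146576-96146635), known from blood progenitors and microglia, had the lowest difference. Its log2 signals were -2.87, -2.52 and -1.66 in LSC GFP+ and -1.06, -0.64 and -0.13 in LSC GFP- cells (log2 difference -1.74 ± 0.36 (SE), adjusted p = 0.164). Hoxb2, a hindbrain gene, was at -2.48, -2.28 and -1.73 in LSC GFP+ and -1.02, -0.60 and -0.0059 in LSC GFP- cells (log2 difference -1.62 ± 0.32 (SE), adjusted p = 0.139). Hoxb4, which promotes the expansion of blood stem cells (chr11:96182885-96182944), was at -1.68, -1.37 and -1.50 and -0.24, 0.50 and -0.020 (log2 difference -1.59 ± 0.24 (SE), adjusted p = 0.0984). In Hoxb2 and Hoxb8 the third replicate was the highest of its population, while the 3 LSC GFP+ samples of Hoxb4 stayed within a narrow range.

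Hoxb9, a gene of the thoracic skeleton and mammary gland, fell 2.68-fold, from 2.38, 2.76 and 3.08 in LSC GFP- to 0.68, 1.49 and 1.80 in LSC GFP+ cells (log2 difference -1.42 ± 0.33 (SE), adjusted p = 0.201). Hoxb5, a gene of the enteric neural crest, fell 2.53-fold, with -0.73, -0.31 and -0.18 in LSC GFP+ and 0.72, 1.26 and 0.81 in LSC GFP- cells (log2 difference -1.34 ± 0.24 (SE), adjusted p = 0.128). Hoxb6 gave 0.87, 1.09 and 1.52 in LSC GFP+ and 2.46, 2.52 and 2.43 in LSC GFP- cells, where the replicates were nearly alike (log2 difference -1.31 ± 0.22 (SE), adjusted p = 0.107). For these genes, too, every LSC GFP+ sample was below every LSC GFP- sample.

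Hoxb7, whose promoter is widely used to mark the Wolffian duct and ureteric bud, varied more among the LSC GFP+ samples than the other tested Hox genes. They were at 0.54, 1.75 and 2.23, compared with 2.36, 2.84 and 3.24 in LSC GFP- cells (log2 difference -1.31 ± 0.44 (SE), adjusted p = 0.43). The lowest value was that of LSC GFP+ replicate 1. Hoxb3 was read by 2 probes with like results. The brighter gave -0.95, -0.61 and -0.60 in LSC GFP+ and 0.29, 0.61 and 0.59 in LSC GFP- cells (log2 difference -1.22 ± 0.20 (SE), adjusted p = 0.107), and the other, for which the array design also lists a Hoxd3 transcript, gave -0.78, -1.05 and -0.54 and 0.32, 0.31 and 0.15 (log2 difference -1.05 ± 0.21 (SE), adjusted p = 0.142). Both separated the populations completely.

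Hoxb13, a gene of ventral prostate differentiation (chr11:96057854-96057913), lies 79.9 kb from the Hoxb9 probe, beyond a stretch with no other Hox gene. It differed in the other direction, with 0.79, 1.18 and 1.23 in LSC GFP+ and 0.33, -0.033 and 0.51 in LSC GFP- cells. The lowest LSC GFP+ sample was above the highest LSC GFP- sample, and the gene rose 1.74-fold (log2 difference 0.80 ± 0.23 (SE), adjusted p = 0.328).

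Differences in the Hoxa cluster were smaller, and 8 of its 9 tested genes had the higher mean in LSC GFP+ cells, 5 of which rose. Hoxa13, with Hoxd13 the main posterior gene of the prostate (chr6:52208856-52208915), was at 3.62, 3.75 and 3.36 in LSC GFP+ and 3.28, 2.98 and 3.06 in LSC GFP- cells and rose 1.39-fold (log2 difference 0.47 ± 0.20 (SE), adjusted p = 0.627). Its second probe, at 2.52, 2.66 and 2.29 and 2.43, 2.02 and 2.08, did not pass the test (log2 difference 0.31 ± 0.21 (SE), adjusted p = 0.883). Of the 3 detected genes of group 13, Hoxa13 thus had the smallest difference. Hoxa10, a gene of the reproductive tract (chr6:52181922-52181981), rose 1.52-fold, with 1.54, 1.85 and 2.02 in LSC GFP+ and 1.30, 0.97 and 1.34 in LSC GFP- cells (log2 difference 0.60 ± 0.22 (SE), adjusted p = 0.483).

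Hoxa9, known from blood stem cells (chr6:52174165-52174224), had the highest difference of the cluster. Its signals were 0.98, 0.99 and 0.44 in LSC GFP+ and 0.32, -0.060 and -0.0080 in LSC GFP- cells, a 1.65-fold rise (log2 difference 0.72 ± 0.23 (SE), adjusted p = 0.408). A second Hoxa9 probe gave -1.24, -1.41 and -1.57 and -1.89, -2.08 and -2.51 (log2 difference 0.75 ± 0.23 (SE), adjusted p = 0.351), so that both probes separated the populations. Hoxa5, a gene of lung and axial development, gave -1.44, -1.15 and -1.49 in LSC GFP+ and -1.50, -2.16 and -2.28 in LSC GFP- cells (log2 difference 0.62 ± 0.26 (SE), adjusted p = 0.598). Hoxa6 gave -0.41, -0.68 and -0.74 and -0.78, -1.32 and -1.32 (log2 difference 0.53 ± 0.23 (SE), adjusted p = 0.622). In both, LSC GFP- replicate 1 stood closest to the LSC GFP+ samples. Hoxa4 was the exception of the cluster and fell 1.60-fold, with -3.99, -2.99 and -3.39 in LSC GFP+ and -2.81, -2.77 and -2.75 in LSC GFP- cells (log2 difference -0.68 ± 0.27 (SE), adjusted p = 0.572). Of the 16 other ways of processing the data, 11 ended the call of Hoxa4 and 8 each those of Hoxa5, Hoxa6 and Hoxa13.

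Hoxa3, Hoxa7 and Hoxa11 did not pass, with log2 differences of 0.36, 0.42 and 0.13 and adjusted p values of 0.791, 0.655 and 0.996. The 3 LSC GFP+ values of Hoxa3 and Hoxa7 were nevertheless all above the 3 LSC GFP- values. With the replicate number as a block both were past the unadjusted threshold (adjusted p = 0.313 for Hoxa3 and 0.289 for Hoxa7). Hoxa11, a gene of the uterus and kidney, overlapped, and its difference turned to -0.084 without LSC GFP- replicate 2.

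Only 4 of 9 Hoxc genes were above background on enough arrays to be tested. Hoxc4 (chr15:102867213-102867272, at the low-number end of its cluster) had the lowest p of all Hox genes. It was at -2.39, -2.67 and -2.10 in LSC GFP+ and -0.36, -0.90 and -0.88 in LSC GFP- cells, and fell 3.19-fold without overlap (log2 difference -1.67 ± 0.24 (SE), adjusted p = 0.0918). Hoxc5 had a log2 difference of 0.17 (adjusted p = 0.996) and Hoxc8, a gene of thoracic patterning, one of 0.29 (adjusted p = 0.86).

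Hoxc10, a gene of the lumbar spinal cord and hindlimb (chr15:102801857-102801916), had the widest spread of values among the tested members. It was at -2.55, -3.86 and -2.76 in LSC GFP+ and 0.84, -3.18 and -0.95 in LSC GFP- cells, so that LSC GFP- replicate 1 stood highest, replicate 3 next, and replicate 2 within the range of the LSC GFP+ samples. Its log2 difference of -1.96 did not pass (adjusted p = 0.668), was past the unadjusted threshold in the fit with the block (adjusted p = 0.199), and was -0.99 without LSC GFP- replicate 1. Hoxc9 was above background on 2 of 3 LSC GFP- arrays and on no LSC GFP+ array. Its signals were -4.87, -3.95 and -4.84 in LSC GFP+ and -2.31, -4.56 and -3.12 in LSC GFP- cells, with LSC GFP- replicate 2 inside the LSC GFP+ range, and no fold or test is given.

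Paralogues thus differed in direction according to their cluster in some groups and not in others. All 4 members of group 4 fell, from -1.67 for Hoxc4 to -0.68 for Hoxa4 on the log2 scale, and all 3 detected members of group 13 rose. Of these calls, that of Hoxa4 was lost in 11 and that of Hoxa13 in 8 of the 16 other ways of processing. The second Hoxa13 probe did not pass. In groups 3, 5, 6, 7 and 9, unlike in groups 4 and 13, Hoxa genes had positive and Hoxb or Hoxd genes negative differences. In group 9, Hoxa9 rose while Hoxb9 and Hoxd9 fell.

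Ratios between genes of the same array do not depend on how arrays are scaled, and their shift between the populations is a difference of differences. The mean of Hoxd10 to Hoxd13 over that of Hoxd3 to Hoxd9 was 1.90 log2 units higher in LSC GFP+ than in LSC GFP- cells. Relative to its mean over the arrays, this ratio stood at 1.54, 0.75 and 0.56 in LSC GFP+ and at -0.38, -1.31 and -1.16 in LSC GFP- replicates 1, 2 and 3. The ratio of Hoxb13 to Hoxb2 through Hoxb9 was higher by 2.24 log2 units, with 1.27, 1.19 and 0.90 in LSC GFP+ and -0.75, -1.53 and -1.08 in LSC GFP- cells. Neither ratio overlapped between the populations. For the neighbours at the turn alone, Hoxd10 over Hoxd9, the ratio was higher by 1.46 log2 units, with 1.52, 0.73 and -0.058 in LSC GFP+ and 0.076, -0.85 and -1.42 in LSC GFP- cells. Here the populations did overlap, as LSC GFP+ replicate 3 lay below LSC GFP- replicate 1. Between paralogues the shift was 2.25 for Hoxa3 over Hoxd3, 1.96 for Hoxa5 over Hoxb5, 2.14 for Hoxa9 over Hoxb9 and 1.74 for Hoxa9 over Hoxd9. The genes of these ratios were chosen with their differences known, and no test is given.

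**Figure D3:**
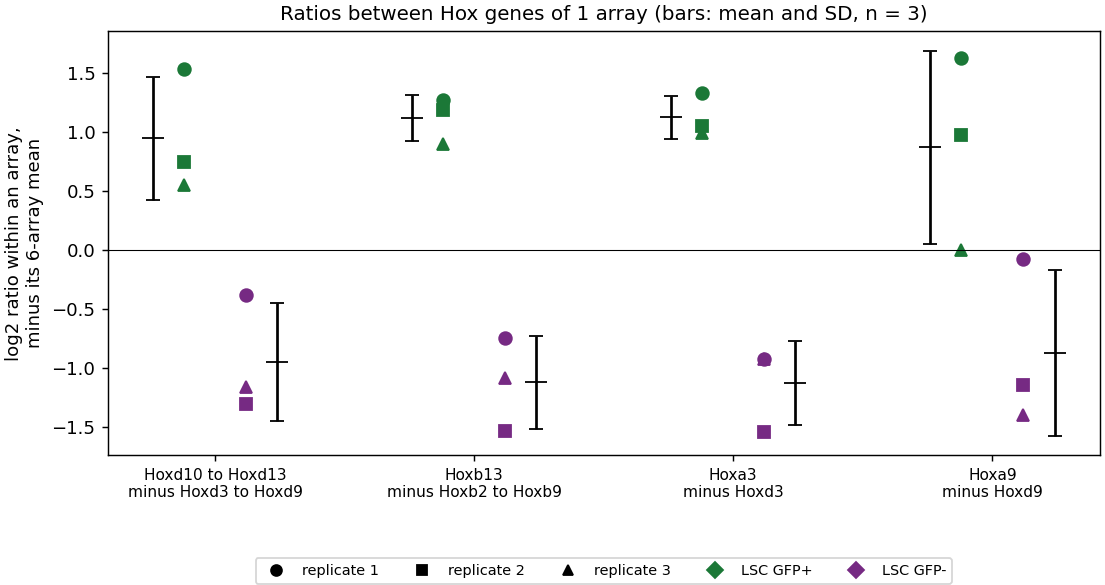
Log2 ratios between Hox genes of the same array, each minus its mean over the 6 arrays (vertical axis), for 4 pairs of genes or stretches, with LSC GFP+ in green, LSC GFP- in purple, the replicate number as the symbol and the mean and SD (n = 3) as black bars. The populations do not overlap in any of the 4 ratios, and they come closest in Hoxa9 over Hoxd9, between LSC GFP+ replicate 3 and LSC GFP- replicate 1.

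Noncoding and other transcripts that lie among the Hox genes were measured by 40 further probes, of which 27 were tested. In the Hoxb cluster 7 of 20 tested probes were lower and 1 higher, with a median log2 difference of -0.48. Over the whole array 2925 of the 37008 probes tested passed in either direction. Several probes share a transcript and did not always pass together. At chr11:96173788-96174352 1 probe passed, with -1.37, and the others had -0.74 and -0.44. On the plus strand of chr11:96111499-96126224 1 passed, with -1.44, and the others had -0.58 to -0.20. The 3 probes of an unnamed transcript at chr11:96175764-96176029 (mm9), between Hoxb5 and Hoxb4, differed by -1.79 to -1.92. ENSMUST00000150698, next to Hoxb7, differed by -1.01 (adjusted p = 0.238) and Gm11536, between Hoxb4 and Hoxb3, by -1.20 (adjusted p = 0.375). Gm11538, the transcript closest to Hoxb13, was higher, by 0.54 (adjusted p = 0.552).

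In the Hoxd cluster AI448005, beside Hoxd4, was lower in LSC GFP+ cells (1.19, 1.61 and 1.63) than in LSC GFP- cells (2.65, 3.12 and 2.79), with a log2 difference of -1.38 (adjusted p = 0.107). ENSMUST00000048086, between Hoxd11 and Hoxd10, was higher by 1.11 (adjusted p = 0.624). In the Hoxa cluster 9530018H14Rik, next to Hoxa13, was higher by 0.60 (adjusted p = 0.422). These transcripts had differences of the same sign as the nearest Hox gene. The 5 probes of HOTAIR, a noncoding RNA of the Hoxc cluster, were too dim to be tested. The strand of the labelled cDNA is not given in the sources used here, so signals of a gene and of a transcript on its other strand are kept apart only by the probe sequence.

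**Figure D4:**
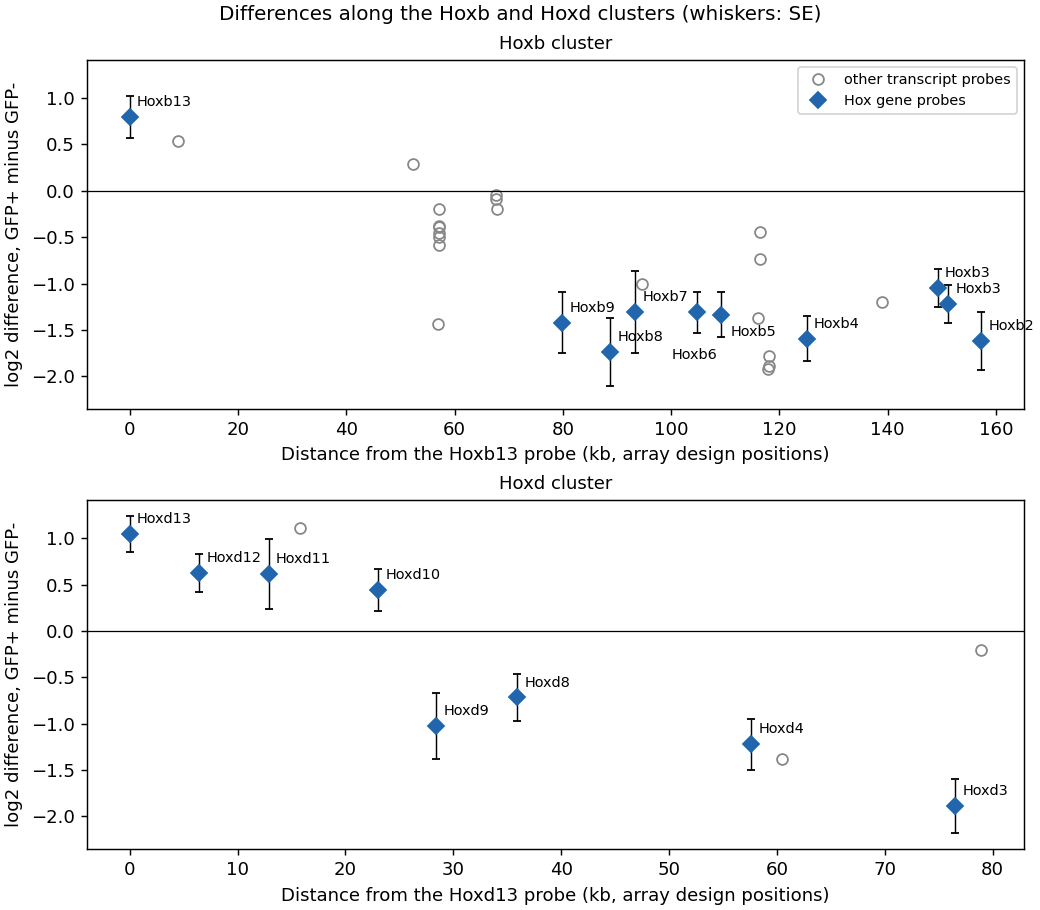
Log2 difference, LSC GFP+ minus LSC GFP- (vertical axis), against the distance in kb from the probe of paralogue 13 for the Hoxb (upper panel) and Hoxd (lower panel) clusters, with Hox probes as filled diamonds with the standard error and other transcripts as open circles. The Hoxd cluster crosses 0 within the 5.40 kb between the Hoxd10 and Hoxd9 probes, and the Hoxb cluster within the 79.9 kb between Hoxb13 and Hoxb9.

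The protein-coding genes just outside the clusters, 2 on each side by RefSeq gene order, gave 15 genes with a probe, 14 of them tested. Their log2 differences ranged from -0.98 to 0.48, with 1 higher and 2 lower, where 3.38% and 4.29% of all symbols passed in these directions. The higher one was Evx1, a homeobox gene next to Hoxa13, at -0.10, -0.0095 and -0.25 in LSC GFP+ and -0.71, -0.56 and -0.52 in LSC GFP- cells (log2 difference 0.48 ± 0.19 (SE), adjusted p = 0.548). Evx2, its counterpart next to Hoxd13, had a log2 difference of 0.34 (adjusted p = 0.851). The lower ones were Skap1, the first gene beyond Hoxb1, with -0.98 (adjusted p = 0.344), and Snx10, beside the Hoxa cluster, with -0.76 (adjusted p = 0.602). They were looked at after the cluster values were known.

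Cofactors and regulators of Hox genes were read in the same fit, in which 7.66% of all symbols passed the threshold. None of the 9 TALE genes tested, among them Meis1 to Meis3, Pknox1 and Pknox2, did so, with a median log2 difference of -0.018 and single values between -0.26 for Pknox2 and 0.25 for Meis1. None of 16 tested Polycomb genes (median 0.17) and none of 8 Trithorax group and H3K27 demethylase genes (median 0.12) passed either. The caudal genes Cdx1, Cdx2 and Cdx4, activators of central Hox genes in the embryo, were not above background on any array. Of the 35 genes tested in these lists, Evx1 alone was past the threshold in limma, compared with 4 by the methods' t-test. Beside the share of all symbols, so small a count is not read as a result about these lists. A p above the threshold does not show that these genes are alike in both populations.

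Some of the 8 marker lists also differed between the populations, and their relation to the Hox values was not tested. For the counts at the threshold, 3.38% of all symbols passed as higher and 4.29% as lower. The summed signal of 8 basal markers, in multiples of the array's 75th percentile, was 217 to 237 on LSC GFP+ and 160 to 173 on LSC GFP- arrays, with 6 of 8 higher. For 8 stroma markers it was 19.4 to 25.7 on LSC GFP+ arrays and 61.8, 21.7 and 37.1 on LSC GFP- replicates 1, 2 and 3, with 5 lower and 1 higher. The higher one was Dcn, a matrix proteoglycan gene named after its values were seen, with a log2 difference of 1.19 and signals of 3.37, 3.76 and 3.97 in LSC GFP+ and 2.77, 2.02 and 2.74 in LSC GFP- cells. All 5 lower ones separated the populations completely, and each was lower in every pair of samples with the same number. For the smooth muscle list it was 6.71 to 10.6 on LSC GFP+ and 20.9 to 40.7 on LSC GFP- arrays, with all 7 tested markers lower and Lmod1 not above background. The list of seminal vesicle and Wolffian duct epithelium gave 14.2 to 21.5 on LSC GFP+ and 20.1 to 32.8 on LSC GFP- arrays, with 4 of 8 lower. Its sum was lower in LSC GFP+ cells in all 3 pairs of samples with the same number, as was each of its 8 markers, and with the replicate number as a block 7 of the 8 were past the threshold, where 14.2% of all symbols passed in either direction.

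Several Hox genes are also expressed in mesenchyme and in the Wolffian duct, and the part of these cells in the Hox differences was not tested.

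Of the remaining lists, luminal markers had 1 higher and 1 lower of 8 tested. Endothelial markers had 2 lower of 5 tested, 1 of them without overlap. Over all symbols 3.38% passed as higher and 4.29% as lower, and counts this small are not read as a result about these lists. Leukocyte and glia and neuron markers had none past the threshold. With the replicate number as a block, 3 of 5 tested glia and neuron markers were past it, all lower. The leukocyte sums were 238 to 318 on LSC GFP+ and 251 to 297 on LSC GFP- arrays, with Lyz2 not above background on any array. The glia and neuron sums were 82.3 to 134 and 86.9 to 157. Transcripts of the positive sorting markers were above background on every array, with log2 differences of 0.25 for Itga6, which encodes CD49f, and -0.36 for Ly6a, which encodes Sca-1 (adjusted p = 0.975 and 0.996), neither past the threshold.

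**Figure D5:**
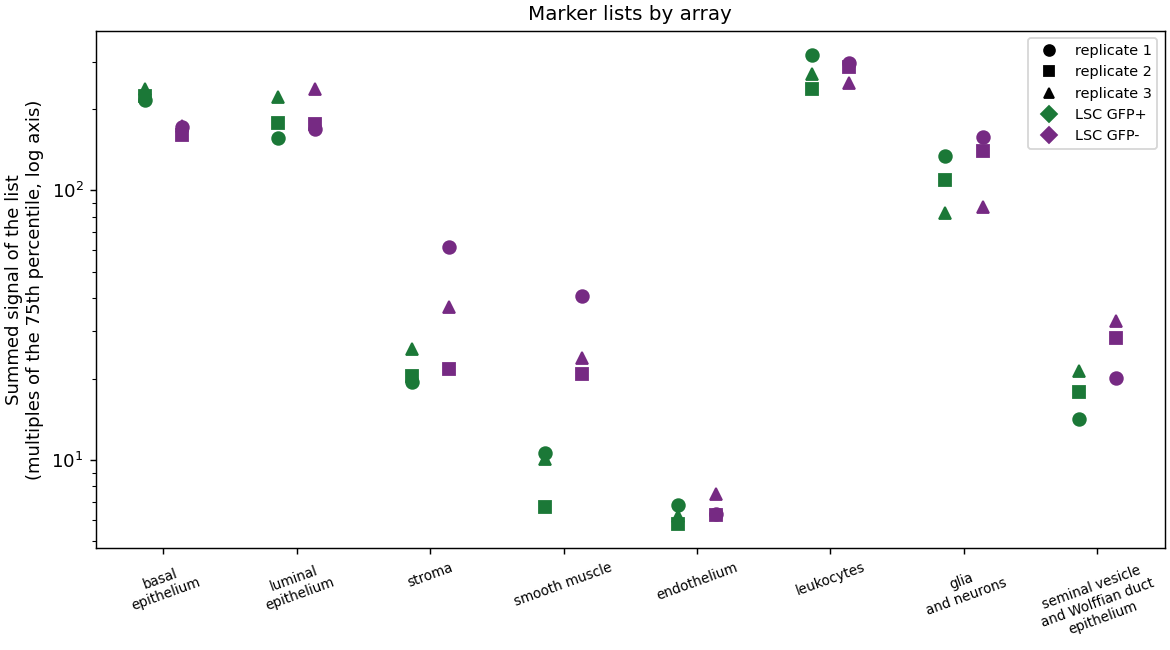
Summed signal of 8 marker lists on each array, in multiples of the array's 75th percentile (vertical log axis), with LSC GFP+ in green, LSC GFP- in purple and the replicate number as the symbol. The populations do not overlap for basal epithelium (higher in LSC GFP+) and smooth muscle (lower), while the stroma sum, which includes Dcn, overlaps at LSC GFP- replicate 2 although 5 of its 8 markers are lower without overlap.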

How the data were processed

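RNA of 3 LSC GFP+ and 3 LSC GFP- samples was measured on SurePrint G3 Mouse arrays. Per the file headers, the deposited intensity values are processed signals of Feature Extraction 11.0.1.1 (the submitters' processing notes name version 10.7.3.1), on a linear scale, background-subtracted and not normalized between arrays. The table of the whole series holds the same intensity values, as deposited by the authors, rounded to 3 significant digits. Positions are those of mm9 in the array design.

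The log2 signals minus the 75th percentile of each array were averaged over the spots of a probe, without outlier spots. No spot was saturated, and between 36657 and 42127 probes were well above background per array. Probes well above background on 3 arrays of at least 1 population were fitted with lmFit and eBayes of limma 3.58.1 (R 4.3.3), two-sided, after a test on simulated data. The adjusted p values are Benjamini-Hochberg values over the 37008 probes tested. The 3 arrays per population limit the precision.

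Samples of the same number deviated together from their population means (r = 0.43, 0.28 and 0.67 across probes), all above 0.1. Samples of unlike number had r between -0.55 and 0.22. LSC GFP+ replicate 1 with LSC GFP- replicate 2, at 0.22, was thus above 0.1 too, and the other unlike pairs were negative. The numbers in the sample labels were taken to pair the samples. Within the 30 Hox genes r was 0.72, 0.73 and 0.81 for like numbers and -0.67 to -0.11 for unlike numbers. Deviations from a population mean sum to 0, so positive values for like numbers push those for unlike numbers below 0. The negative values are therefore no separate support for the pairing. The main fit has no block, as the study's methods name none.

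All members, and by name those past an unadjusted p of 0.05, are described. The members, gene lists and stretches were chosen with earlier results of these data known. Kmt2a was matched through an older symbol. The results were recomputed with normexp background correction, after quantile normalization or median scaling, from the rounded table, with other filters, with the mean over a gene's probes, by the methods' t-test, with an intensity trend or the replicate block in limma, and without each array in turn. A few items are not reported here.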

Additional observations from a re-analysis of the deposited data

How the results depend on the processing

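All 22 Hox genes past the threshold kept their direction under all 16 alternatives, and 12 of them stayed past it under every one. The count of 22 was 14 to 21 with 1 array left out, 14 without LSC GFP- replicate 3, and the count of higher genes was 3 to 8, with 5 without LSC GFP+ replicate 1, 3 without LSC GFP+ replicate 2, 3 without LSC GFP- replicate 2 and 4 without LSC GFP- replicate 3. The array left out cost 6, 5 and 4 of the calls for LSC GFP+ replicates 1, 2 and 3, and 2, 8 and 8 for LSC GFP- replicates 1, 2 and 3. The count of Hox probes was 16 to 23 and that of lower genes 10 to 14. With all probes tested, however dim, the higher genes were 5 and the medians 0.44 for the Hoxd genes, a reversed sign, -0.32 for anterior, -0.72 for central and 0.28 for posterior genes, since the dim genes enter them. Normexp correction gave medians of -1.07 for anterior and -0.67 for central genes, where the cause was not tested. With 1 array left out the median of the central genes was -1.10 to -0.66, of the Hoxb genes -1.60 to -1.17, of the anterior genes -1.59 to -1.26, of the Hoxc genes -0.89 to -0.36, and the difference of Hoxa11 turned to -0.084 without LSC GFP- replicate 2. The 1 cofactor or regulator gene past the threshold became 0 to 1 with 1 array left out, 2 under quantile normalization, 4 by the methods' t-test, 2 with an intensity trend and 2 with the replicate block.

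Fitting the replicate number as a block to use the pairing put 27 of the 30 Hox genes past the threshold (12 higher, 15 lower), compared with 14.2% of all symbols. The 5 added genes are Hoxa3, Hoxa7, Hoxc10, Hoxd10 and Hoxd11, and the block changed no other call among the Hox genes. The filter on dim probes leaves 9 Hox genes without a test.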
